A study of Boehmeria nivea with 10 samples.

Results

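In 19 contigs of ramie root RNA, every library of early hydroponic roots lay above every library of soil-grown roots, and every library of late hydroponic roots lay below them. They were chosen by that order from 13171 eligible contigs, out of 40300 listed in any library. An eligible contig was unclustered in the assembly, which means that it was not grouped with related contigs, and it had an expected count of at least 10 in all 9 libraries. Step 1 is the lowest early FPKM over the highest terrestrial FPKM, and step 2 is the lowest terrestrial FPKM over the highest late FPKM. FPKM is the read count scaled to contig length and to the library's reads, so it is a level per length. Both steps had to exceed 1, and the early mean had to be at least 1.5 times the late mean. The rule allowed up to 60 contigs and 19 met it, so none was dropped by rank. All 9 libraries were used in the choice, so the order of the groups and the size of the differences are descriptions of what was chosen and carry no test.

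Ramie (Boehmeria nivea) is a bast-fibre crop of the nettle family. Per the labels, roots of 3 kinds were sequenced with 3 libraries each: aquatic roots at the early stage of induction on 5-day-old seedlings, aquatic roots at the late stage on 30-day-old seedlings, and terrestrial roots of 30-day-old seedlings. Early and late hydroponic roots differ in seedling age as well as in stage, early and terrestrial roots differ in age and in medium, and late and terrestrial roots share their stated age. The remaining sample of 10, a pool of aquatic and terrestrial stages, served for assembling the contigs and was not analysed here. The labels give no genotype or cultivar and do not say whether replicates came from separate plants, and no plant is described as sampled at both ages.

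Roots that form in water meet low oxygen and an unlimited water supply, while roots in soil meet drier and mechanically firmer surroundings. Many plants answer submersion with new adventitious roots, gas-filled cortical tissue, ethylene signalling and a shift of carbon metabolism toward fermentation, and root tissues also change with age as they lignify and branch. The deposited tables pair no contig with a gene name, a description or a sequence. No function is therefore given for any contig here, no pathway list was counted, and the labelled tissue was not checked against marker genes.

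On deposited FPKM, terrestrial roots rarely lay between the hydroponic stages without overlap. Of the 13171 eligible contigs, 4065 (30.9%) had all early libraries above all terrestrial ones, and 4586 (34.8%) had all terrestrial libraries above all late ones, but both held in 25 (0.19%). The ratio of means was under 1.5 in 6 of these 25. Early libraries lay above late ones without overlap in 1937 contigs (14.7%), and among those the terrestrial libraries were below both stages in 912, above both in 224, strictly between in 25 and overlapping a stage in 776. The opposite order, late above terrestrial above early, held in 103 contigs, of which 92 met the same 1.5-fold minimum. Among the 6 possible orders of groups that do not overlap, the order of the 19 contigs was the rarest on deposited FPKM. The most frequent was terrestrial above late above early, with 1581. On the rescaled FPKM described below, 36 and 41 contigs met the rule in place of 19. The other orders were not recounted there, so their ranking holds for deposited FPKM only. Group means alone, with overlap allowed, were in the order early, terrestrial, late in 493 contigs. In bulk root RNA, fewer cells of a type and less RNA per cell cannot be told apart as the source of a lower level.

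**Figure D1:**
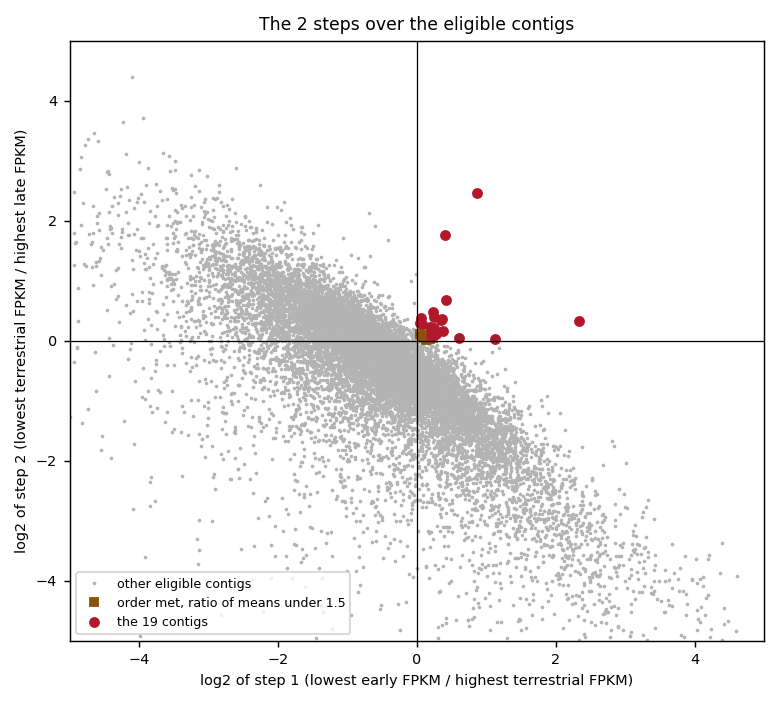
Step 1 (x axis) against step 2 (y axis), both as log2, for the eligible contigs; 12975 lie within the axes and 196 outside. The upper right quadrant, where both steps exceed 1, holds the 19 contigs (red) and the 6 contigs with a ratio of means under 1.5 (brown), and both axes use the same terrestrial libraries, so they are not independent.

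The count of 19 depended on 2 libraries. Without late hydroponic replicate 3 the rule was met by 56 contigs, without terrestrial replicate 2 by 53, and without both, a setting chosen after seeing the data, by 162. Leaving out any of the other 7 libraries gave 23 to 27. All 19 contigs were among those found in each of these cases, as they must be apart from the ratio of means, since fewer libraries only loosen the steps. Late replicate 3 had the lowest mean correlation with its own group among the late libraries (0.927, against 0.935 and 0.938 for replicates 1 and 2, across contigs on log2 CPM), and terrestrial replicate 2 the lowest among the terrestrial ones (0.943, against 0.954 and 0.952).

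Library totals stood in the same order as the 19 contigs. Listed expected counts summed to 11424582 to 11522430 in early, 10473340 to 10702907 in terrestrial and 9499903 to 10328909 in late libraries, with no overlap. FPKM divides by the library's reads, and the mean total of early libraries was 1.16 times that of late ones. The part of depth in the result was not tested. TMM factors, edgeR's scaling for composition, were 0.907 to 0.935 in early, 0.981 to 1.06 in late and 1.04 to 1.11 in terrestrial libraries. Rescaling FPKM by them raises early and lowers terrestrial values. On that scale 36 contigs met the rule, and 41 did with DESeq2's size factors, and 17 of the 19 were among them both times. The exceptions were Unigene1312_mixA, whose step 2 went from 1.03 to 0.98 with TMM, and Unigene20116_mixA, whose step 2 went from 1.02 to 0.92.

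Levels of the 19 contigs ran over a wide range. The group mean in early roots ran from 4.84 to 1235 FPKM with a median of 44.3, where the median over eligible contigs was 13.2. In terrestrial roots the median of the 19 was 29.1 FPKM (15.4 over eligible contigs), and in late roots it was 13.8 FPKM (15.3). An early mean of at least 100 FPKM was seen in 5 of the 19 (26.3%), compared with 6.67% of eligible contigs, and 2 had an early mean under 10 FPKM. The rule asked for early libraries above all others, so a high early level is not independent of the choice. The early to late ratio of means ran from 1.58 to 34.8 with a median of 2.59, and it was at least 2 in 13 contigs and at least 5 in 3.

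**Figure D2:**
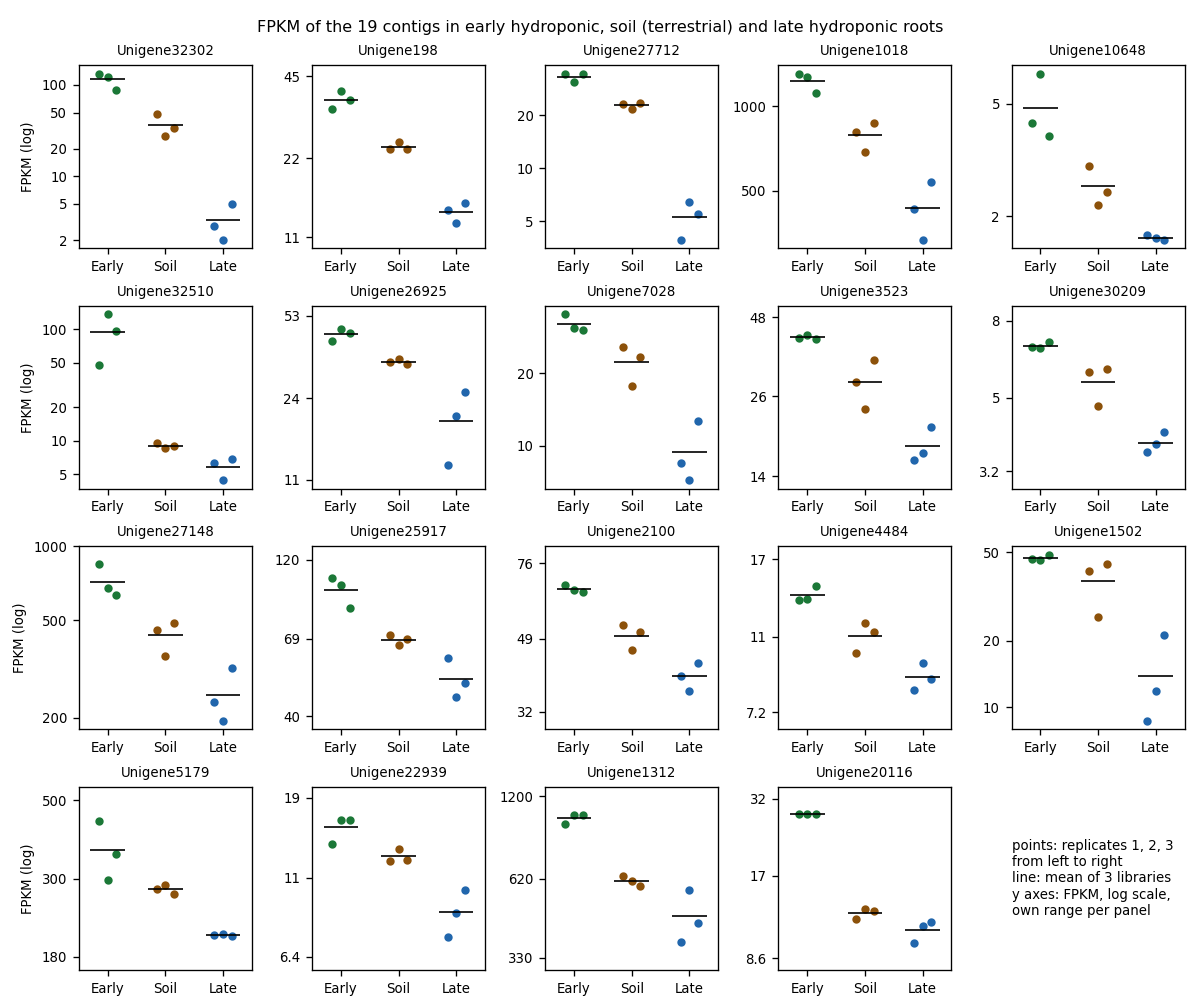
FPKM (log y axis, own range in each panel) of the 19 contigs in early hydroponic, soil-grown (terrestrial) and late hydroponic roots, with replicates 1, 2 and 3 as points from left to right and the mean of the 3 libraries as a line. In every panel the early points lie above the soil points and the late points below them, which is how the contigs were chosen, and the gap between groups varies from a wide one in Unigene32302 to a narrow one in Unigene20116 between soil and late roots.

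Unigene32302_mixA, of 1554 bases, had both the highest smaller step, 1.82, and the highest early to late ratio, 34.8. It stood at 133.57, 123.84 and 87.37 FPKM in early replicates 1, 2 and 3, at 47.93, 27.77 and 34.07 FPKM in terrestrial and at 2.85, 2.02 and 5.03 FPKM in late ones. The means were 115 ± 24.4, 36.6 ± 10.3 and 3.3 ± 1.55 FPKM (SD, n = 3). It was the single contig of the 19 with both steps above 1.5, at 1.82 and 5.52. Late roots still gave 30 to 81 expected counts per library for it, so its late level rests on few reads.

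Unigene27712_mixA, of 2190 bases, had a terrestrial level nearer to its early level than to its late one. Its early libraries read 34.09, 30.72 and 34.46 FPKM, its terrestrial ones 23.08, 21.66 and 23.36 FPKM and its late ones 3.93, 6.42 and 5.51 FPKM. Early roots were 1.46 times the terrestrial mean, and terrestrial roots were 4.29 times the late mean. Replicates were tight in early and terrestrial roots, with coefficients of variation (SD over mean) of 6.23% and 4.02%, and looser in late roots at 23.8%.

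Unigene32510_mixA, a short contig of 571 bases, had the reverse shape, with most of its log2 difference between early and terrestrial roots. Early replicates 1, 2 and 3 read 47.9, 136.69 and 96.33 FPKM, a coefficient of variation of 47.5%, the highest among the 19 in early roots. Terrestrial libraries lay at 9.54, 8.59 and 8.87 FPKM and late ones at 6.26, 4.4 and 6.87 FPKM. Early roots were 10.4 times the terrestrial mean and terrestrial roots 1.54 times the late mean. Step 2 of 1.25 compared terrestrial replicate 2 with late replicate 3, and its 95% counting interval of 0.81 to 1.95 included 1. Counts were low in both groups, at 50 to 56 per terrestrial library and 23 to 39 per late one.

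Unigene1018_mixA, of 450 bases, was the most abundant of the 19. It read 1312.63, 1270.71 and 1120.9 FPKM in early, 812.35, 688.45 and 871.22 FPKM in terrestrial and 427.84, 333.02 and 536.76 FPKM in late replicates 1, 2 and 3. Its 2 steps were nearly equal, at 1.29 and 1.28. No library gave it a whole expected count. Some reads were therefore split between it and other contigs, which the counts do not identify, and its level depends on that split.

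Unigene27148_mixA, at 273 bases the shortest of the 19, had almost the same profile at a lower level. Early libraries read 844.52, 675.8 and 630.88 FPKM, terrestrial ones 456.84, 357.92 and 487.54 FPKM and late ones 232.7, 192.99 and 319.67 FPKM. Its counts were whole in 9 of 9 libraries. Unigene1018_mixA stood at 1.55 to 1.92 times its level in all 9 libraries, with a median of 1.78, and the standard deviation of this log2 ratio, 0.09, was the smallest among the 171 pairs of the 19 contigs. Late replicate 3 was the highest late library in both, and terrestrial replicate 2 the lowest terrestrial one, as in 9 of the 19 contigs with this pair counted. The pair was singled out after its values were seen, and whether these short contigs are pieces of 1 transcript was not tested.

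Unigene1312_mixA, of 1117 bases, was the second most abundant, at 1009.5 ± 40 FPKM in early, 610.1 ± 26 FPKM in terrestrial and 459 ± 99.4 FPKM in late roots (SD, n = 3). Late replicates 1, 2 and 3 read 373.77, 568.11 and 434.29 FPKM, and the highest of these lay close to terrestrial replicate 3, at 584.66 FPKM. Step 2 was 1.03 on 4102 or more counts in each library, and its counting interval ran from 0.99 to 1.07. Whole counts were found in 0 of 9 libraries.

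Unigene5179_mixA, of 333 bases, was uneven in early roots and even in the others. It read 436.03, 298 and 351.84 FPKM in early, 280.52, 286.98 and 271.67 FPKM in terrestrial and 207.65, 209.1 and 206.55 FPKM in late replicates 1, 2 and 3. The coefficient of variation was 19.2% in early, 2.75% in terrestrial and 0.62% in late roots, and the last was the lowest among the 19 for late roots. Early replicate 2 was at 1.04 times the highest terrestrial library, and none of its counts was whole in any library.

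A further 4 contigs of intermediate level had early to late ratios from 2.33 to 3.40. Unigene7028_mixA, of 555 bases, read 35.13, 30.64 and 30.19 FPKM in early, 25.76, 17.77 and 23.41 FPKM in terrestrial and 8.47, 7.18 and 12.72 FPKM in late libraries. Unigene1502_mixA, of 1295 bases, read 46.73, 46.35 and 48.73 FPKM in early, 41.23, 25.61 and 44.33 FPKM in terrestrial and 8.68, 11.79 and 21.25 FPKM in late libraries. In Unigene1502_mixA 2 of 3 terrestrial libraries nearly reached the early level, and terrestrial replicate 2 came near late replicate 3. Unigene198_mixA, of 2136 bases, stood at 33.68, 39.58 and 36.55 FPKM in early, 23.71, 25.32 and 23.78 FPKM in terrestrial and 13.97, 12.53 and 14.84 FPKM in late libraries. Unigene3523_mixA, of 2266 bases, had early libraries within 40.71 to 42.01 FPKM, terrestrial ones from 23.68 to 34.45 FPKM and late ones from 15.9 to 20.48 FPKM. Its wide terrestrial range left gaps of 1.18-fold to the early and 1.16-fold to the late libraries.

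Unigene26925_mixA, of 1159 bases, had a stable terrestrial level of 33.2 to 35.08 FPKM, between early libraries at 41.37 to 46.57 FPKM and late ones at 12.6, 20.19 and 25.37 FPKM. Its counts were whole in 0 of 9 libraries, as were those of Unigene7028_mixA. Unigene20116_mixA, of 1687 bases, was nearly constant in early roots, at 28.15, 28.22 and 28.16 FPKM. Its terrestrial libraries, at 11.91, 12.96 and 12.73 FPKM, hardly cleared the late ones, at 9.78, 11.22 and 11.64 FPKM. Early roots were 2.25 times the terrestrial mean here and terrestrial roots 1.15 times the late mean, the smallest such ratio among the 19.

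The remaining contigs differed by less than 2-fold between early and late means, apart from Unigene10648_mixA. Unigene25917_mixA, at 4668 bases the longest of the 19, stood at 97.1 ± 10.4 FPKM in early, 68.4 ± 2.47 FPKM in terrestrial and 52.1 ± 7.36 FPKM in late roots (SD, n = 3). Unigene2100_mixA, of 2357 bases, stood at 65.4 ± 1.44, 49.9 ± 3.6 and 39.4 ± 3.24 FPKM in the same order. Both had high counts, 820 or more in every library, and the narrow step 2 of Unigene2100_mixA, 1.08, had a counting interval of 0.99 to 1.17.

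Unigene30209_mixA, of 2452 bases, stood at 6.87 ± 0.13 FPKM in early, 5.52 ± 0.67 FPKM in terrestrial and 3.8 ± 0.23 FPKM in late roots (SD, n = 3). Unigene4484_mixA, of 1059 bases, had the smallest early to late ratio, 1.58, with 13.9 ± 0.6, 11.1 ± 0.91 and 8.78 ± 0.67 FPKM. Unigene22939_mixA, of 427 bases, stood at 15.5 ± 1.43, 12.7 ± 0.6 and 8.7 ± 1.41 FPKM on 29 to 75 counts per library. These 3 had steps between 1.03 and 1.22, and the counting interval of each step included 1. Unigene10648_mixA, of 1753 bases, was the lowest of the 19, at 4.28, 6.4 and 3.85 FPKM in early, 3.02, 2.19 and 2.44 FPKM in terrestrial and 1.72, 1.67 and 1.65 FPKM in late libraries, on 28 to 129 counts, and both of its intervals included 1 as well.

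The terrestrial mean divided the fall from early to late roots differently from contig to contig. On the log2 scale the part between early and terrestrial means was 42.5% of the whole in the median contig, from 19.9% in Unigene1502_mixA to 85.1% in Unigene20116_mixA. On deposited FPKM it was under 50% in 13 contigs and over 50% in 6, but this majority turned with the scaling. With FPKM rescaled by TMM factors it was over 50% in 14 and under 50% in 5, with a median of 55.5%, and DESeq2's size factors gave 14 and 5 as well. These rescaled counts were added after seeing the data. Among the 3 contigs with early to late ratios of at least 5, it was 32.2% in Unigene32302_mixA, 20.5% in Unigene27712_mixA and 84.4% in Unigene32510_mixA, and 36%, 27.8% and 87.3% on the TMM scale.

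**Figure D3:**
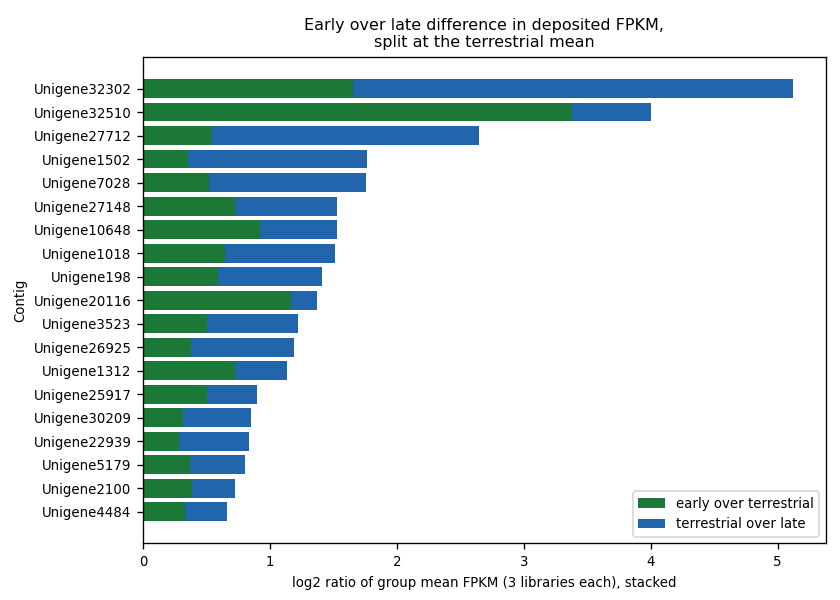
Log2 ratio of group mean FPKM for each of the 19 contigs, split at the terrestrial mean into early over terrestrial (green) and terrestrial over late (blue), so that the whole bar is early over late. Bars run from 0.66 in Unigene4484 to 5.12 in Unigene32302, and green is the longer part in 6 of 19 contigs on this scale, deposited FPKM, and in 14 of 19 with FPKM rescaled by TMM factors.

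Counting error alone left part of the gaps unresolved. For each step, a 95% exact binomial interval was set on the ratio between the libraries that bound it, and it covers counting error only. The rule already required each of these ratios to exceed 1, so the intervals are descriptions and no test of the order. It lay above 1 for step 1 in 12 of 19 contigs, for step 2 in 11 and for both in 8: Unigene32302_mixA, Unigene198_mixA, Unigene27712_mixA, Unigene1018_mixA, Unigene26925_mixA, Unigene3523_mixA, Unigene27148_mixA and Unigene25917_mixA. The smaller step was at least 1.2 in 6 contigs and under 1.1 in 8. The bounding libraries of step 2 were terrestrial replicate 2 and late replicate 3 in 9 of 19 contigs. Late replicate 3 was the highest late library in 13 of the 19 (68.4%), against 31.6% of eligible contigs, and terrestrial replicate 2 the lowest terrestrial one in 12 (63.2%), against 49.5%. The part of these libraries in the narrow gaps was not tested, beyond the counts without them given above.

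Contigs just outside the rule looked much like those just inside. The last contigs inside by the smaller step were Unigene22939_mixA, at 1.03, Unigene1312_mixA, at 1.03, and Unigene20116_mixA, at 1.02. Nearest below a step of 1, with a sufficient ratio of means, were Unigene12029_mixA at 0.996, Unigene3334_mixA at 0.994 and Unigene16333_mixA at 0.986. Unigene3334_mixA would have been a large fall, from 9.62 ± 1.92 FPKM in early and 7.84 ± 0.33 FPKM in terrestrial to 2.57 ± 0.8 FPKM in late roots (SD, n = 3), but early replicate 3, at 8.16 FPKM, lay just under terrestrial replicate 3, at 8.21 FPKM. Nearest below the 1.5-fold minimum were Unigene10693_mixA, at 1.46, Unigene2832_mixA, at 1.45, and Unigene6032_mixA, at 1.43.

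The counts without 1 library can also be read as shares. Of the contigs chosen on 8 libraries, the left-out library kept to the same order in 70.4 to 82.6% for 7 of the 9 libraries, in 41.1% for late replicate 3 and in 35.8% for terrestrial replicate 2. An early or late library was placed here against the terrestrial ones, and a terrestrial library against both hydroponic stages. Over all eligible contigs the same placement held in 34.7 to 36.9% for early and 41.7 to 46.4% for late libraries. For terrestrial libraries it held in 0.83 to 1.16%, so the 2 kinds of share are not on 1 scale. For late replicate 3 it held in 46.4% of eligible contigs, above the 41.1% of the chosen ones. The contigs that kept the order were the 19 themselves and up to 4 more, so these shares restate the counts given above and are no separate support for the order.

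The fit over the whole table gave the same directions, which the choice of contigs fixes. With edgeR's quasi-likelihood test on rounded counts and an adjusted p under 0.05, all 19 were called lower in late than in early roots, where 6.3% of the 26747 contigs tested were. In early against terrestrial roots 17 of 19 were called higher, where 30.1% of all contigs were, and in late against terrestrial roots 10 of 19 were called lower, where 24.2% were. Since the same values chose the contigs, nothing is read from these counts. The fitted log2 difference between late and early roots had a median size of 1.51 over the 19 contigs (0.80 to 5.25), that between early and terrestrial roots 0.76 (0.52 to 3.61) and that between late and terrestrial roots 0.52 (0.11 to 3.35). Over all contigs tested the median of the signed log2 difference, in which rises and falls offset each other, was 0.04, -0.09 and 0.02. With library totals in place of TMM it was 0.18, -0.32 and -0.07. These medians are a different measure from the sizes given for the 19 contigs. Between late and early roots 2238 contigs were higher and 1684 lower in late roots with TMM, but 3249 higher and 1052 lower with library totals. Not called in early against terrestrial roots were Unigene1502_mixA and Unigene22939_mixA. In late against terrestrial roots Unigene10648_mixA, Unigene32510_mixA, Unigene25917_mixA, Unigene2100_mixA, Unigene4484_mixA, Unigene5179_mixA, Unigene22939_mixA, Unigene1312_mixA and Unigene20116_mixA were not called.

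Whole expected counts in all 9 libraries were found in 13 of the 19 contigs (68.4%) and in 85.2% of eligible contigs. The 6 contigs with shared reads were Unigene198_mixA, Unigene1018_mixA, Unigene26925_mixA, Unigene7028_mixA, Unigene5179_mixA and Unigene1312_mixA. The median length was 1295 bases, against 1342 over eligible contigs. Shorter than 600 bases were 6 of the 19, a larger share than the 1903 of the 13171 eligible ones. Within-group spread was smaller than usual in terrestrial roots, with a median coefficient of variation of 7.21% against 13.8% over eligible contigs, and in early roots, at 8.06% against 11.1%. In late roots it was 16.2% against 15.9%. The rule used the lowest early, the highest and lowest terrestrial and the highest late library. It therefore favours tight groups, and none of these spreads is independent of the choice. Summed over the 19 contigs, FPKM was 4209, 4013 and 3773 in early, 2588, 2285 and 2605 in terrestrial and 1445, 1501 and 1739 in late replicates 1, 2 and 3, and Unigene1018_mixA, Unigene27148_mixA and Unigene1312_mixA made up 71.6 to 74.6% of each sum.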

How the data were processed

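RNA of 9 ramie root libraries was quantified by the authors against contigs assembled from a pooled sample, per the series' design text. Per the file headers, each deposited table gives a contig's length in bases, its expected count (an estimate of its reads, not whole where reads are shared between contigs) and its FPKM. Aligner, counting program, strandedness and filters: not given in the sources used here. A contig not listed in a library was entered as 0, which touches none of the 19 contigs. Groups were taken from the labels.

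Expected counts were rounded and fitted for the 3 groups together with edgeR 4.0.16 in R 4.3.3: TMM scaling, filterByExpr with a minimum count of 10, robust quasi-likelihood dispersions, 6 residual degrees of freedom, no block, and Benjamini-Hochberg adjustment over all contigs tested, with a threshold of 0.05. Alternatives used DESeq2 1.42.0 and limma 3.58.1 on log2(FPKM + 1) and log2(FPKM + 0.1). Intervals came from SciPy 1.17.1. The fits and the rule were tested on simulated data. Chi-square per degree of freedom between replicates ran from 8.01 to 36.4, so no library was a copy. The labels do not tie replicates to separate plants. The p-values measure only sample-to-sample spread, which may be technical.

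All contigs named were taken by rule: the 19 that met the choice and those nearest to its limits, plus the clustered contigs in the closing section, added after their values were seen. The contigs and the rules were chosen with earlier results of these data known.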

Additional observations from a re-analysis of the deposited data

How the results depend on the processing

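The number of contigs meeting the rule moved from 19 to 36 on the TMM scale, to 41 with DESeq2's size factors, to 29 with clustered contigs admitted and to 162 without late hydroponic replicate 3 and terrestrial replicate 2 together; leaving out 1 library gave 23 to 56. It was 21 and 14 with a count minimum of 5 and 50, 13 with a ratio of means of at least 2 and 13 with whole counts required. The 19 contigs called lower in late than in early roots numbered 18 to 19 without 1 library and 19 under the other settings. Those called higher in early than in terrestrial roots numbered 15 to 19 without 1 library and 12 to 18 otherwise, against 17. Those called lower in late than in terrestrial roots numbered 7 to 11 and 9 to 14, against 10. Of all contigs tested, 2.32 to 10.7% were called lower in late than in early roots without 1 library, and 3.93 to 13.3% otherwise. The shares were 26.4 to 30.9% and 23.5 to 31.2% for higher in early than in terrestrial roots. For lower in late than in terrestrial roots they were 19.6 to 22.6% and 15.9 to 28.8%. No fitted difference of the 19 changed sign in any of the 3 comparisons, which the choice of contigs largely fixes. Calls were lost in Unigene22939_mixA between late and early roots without early replicate 2 or 3 or late replicate 1 or 2, and in Unigene7028_mixA between early and terrestrial roots without early replicate 1 or terrestrial replicate 2. Unigene26925_mixA lost its call between early and terrestrial roots without any 1 early or terrestrial library, and between late and terrestrial roots without late replicate 2 or terrestrial replicate 1 or 2. Unigene27148_mixA and Unigene30209_mixA lost theirs between late and terrestrial roots without late replicate 1 or 2 or terrestrial replicate 1 or 3. The cause was not tested.

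Deviations from group means correlated at -0.09 to 0.14 across contigs for same-numbered libraries, and at -0.16 to 0.13 for differently numbered ones. Between early and late libraries they correlated at 0.05, 0.07 and 0.02 for the same number, and at -0.06 to 0.0001 otherwise. Whether same-numbered libraries share more than a number was not tested. With the replicate number as a block, 19, 17 and 10 of the 19 contigs were called, as without it, while calls over all contigs between late and early roots went from 2238 higher and 1684 lower to 1736 and 1357. Depth limits the late levels of Unigene32302_mixA (30 to 81 counts per library), Unigene32510_mixA (23 to 39), Unigene10648_mixA (28 to 30) and Unigene22939_mixA (29 to 42).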

Other observations

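Clustered contigs, which the rule left out because the assembly grouped them with related sequences, held 10 more with the same order and ratio of means. Their reads can be divided among related contigs, and the counts of CL1084.Contig2_mixA, CL842.Contig1_mixA, CL1000.Contig5_mixA and CL2238.Contig2_mixA were whole in 0 of 9 libraries. They were named after their values were seen, and they are descriptions with no test. CL1084.Contig2_mixA, of 1171 bases in a cluster of 2 contigs, had the largest smaller step, 1.42. It read 13.5, 17.57 and 13.94 FPKM in early, 7.91, 5.94 and 9.52 FPKM in terrestrial and 1.59, 1.67 and 2.02 FPKM in late replicates 1, 2 and 3. Its early mean was 8.52 times its late mean, a ratio that 2 of the 19 unclustered contigs exceeded.

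CL3690.Contig1_mixA, of 641 bases, was the most abundant of these, at 545 ± 47.8 FPKM in early, 329 ± 66.9 FPKM in terrestrial and 214.5 ± 40.4 FPKM in late roots (SD, n = 3), with whole counts in 9 of 9 libraries. CL4052.Contig2_mixA, of 1513 bases, stood at 303 ± 12.2, 245 ± 20.8 and 175 ± 17.4 FPKM in the same order. CL842.Contig1_mixA, of 1656 bases, read 143.66, 162.67 and 177.3 FPKM in early, 128.34, 89.26 and 120.74 FPKM in terrestrial and 43, 61.58 and 75.42 FPKM in late replicates 1, 2 and 3. The other 7 had early means from 6.47 to 34.8 FPKM.

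Unigene31853_mixA, Unigene19584_mixA and Unigene28077_mixA met the order and the ratio of means but had fewer than 10 expected counts in at least 1 library. Unigene19584_mixA, of 1015 bases, went from 10.1 ± 3.85 FPKM in early to 2.16 ± 0.73 FPKM in terrestrial and 1.01 ± 0.35 FPKM in late roots (SD, n = 3), with step 2 at 1.05.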
